A study of Mus musculus with 73 samples.

Results

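Lpl, Cd36, Msr1, Fabp4, Fabp5, Plin2, Abcg1, Abca1, Pparg and Nr1h3 are 10 genes through which macrophages take up, carry, store and release lipid. They were chosen by name, with earlier results of these data known, and make up 10 of the 23994 gene rows measured in 73 single cells. A count of them set beside all genes is thus only a description. Levels are in FPKM, fragments scaled by transcript length and by the size of the library, and a gene was called detected in a cell at an FPKM of 1 or more. All 10 genes were detected in at least 8 cells, as were 6151 of the 23994 rows.

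The cells came from the right lung of 1 adult mouse on the B6 background, 10 weeks of age, whose left lobe had been removed 7 days before. The mouse carried Csf1r-GFP, a green fluorescent reporter of the gene for the macrophage colony-stimulating factor receptor, and every cell had been sorted as CD45+, CSF1R-GFP+ and F4/80+, with Ly6G named in the labels without a sign. Each cell was captured on a Fluidigm C1 chip, and its polyadenylated RNA was amplified with SMARTer chemistry before Nextera XT libraries were made. All cells thus share 1 mouse, 1 genotype, 1 operation and 1 time, an unoperated lung was not analysed here, and no test over animals was possible, so every difference below is a description with its spread over cells.

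Lung macrophages that live in the air spaces clear surfactant, a lipid-rich film, and handle much more lipid than blood monocytes do. Lipoprotein lipase and scavenger receptors bring fatty acids and modified lipoproteins to the cell, fatty acid-binding proteins carry them in the cytosol, and perilipins coat the droplets in which neutral lipid is stored. ABC transporters export cholesterol. The nuclear receptor PPARγ, encoded by Pparg, drives uptake and storage genes and the maturation of alveolar macrophages, and LXRα, encoded by Nr1h3, drives the cholesterol exporters when sterols accumulate.

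Cells were grouped by clustering in which the 10 genes and 79 further lipid genes took no part. Of the 73 cells, 12 were alveolar-macrophage-like (16.4%, Clopper-Pearson 95% interval 8.79 to 26.95, counting error only), with a median of 10 of 11 alveolar macrophage markers detected and at most 2 of 10 classical monocyte markers. A further 6 cells were interstitial-macrophage-like, led by the complement genes C1qa, C1qb and C1qc, and 5 cells led by class II and cell cycle genes stayed unnamed. The remaining 50 were classical-monocyte-like (68.5%, 56.6 to 78.9), with a median of 9 of 10 classical monocyte markers, although 9 of them held 5 or fewer. The label of macrophages given to the sort thus covers many cells whose leading genes were those of monocytes. Mouse fragments per cell ran from 347003 to 3485925, with medians of 1057394.5 over the 12 alveolar-macrophage-like cells and 1392921 over the 50 classical-monocyte-like cells. Genes detected per cell ran the other way, with medians of 2739.5 for the alveolar-macrophage-like class and 2168.5 for the classical-monocyte-like class, and the part of this in the differences below was not tested.

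Between the 12 alveolar-macrophage-like and the 50 classical-monocyte-like cells, 8 of the 10 genes were higher by at least 1 unit of mean log2(FPKM + 1), namely Lpl, Fabp5, Pparg, Abcg1, Fabp4, Cd36, Plin2 and Abca1. Over all 6151 genes the share higher by that much was 19.2%. Msr1 alone of the 10 was lower by at least 1 unit, a size reached by 9.12% of all genes, and Nr1h3 lay between. The median difference was 4.12 over the 10 genes and 0.13 over all genes. Each cell held 5 to 9 of the 10 genes in the alveolar-macrophage-like class (median 6.5), against 0 to 8 in the classical-monocyte-like class (median 2). Together the 10 genes made up a median of 0.506% of mouse FPKM in alveolar-macrophage-like cells, with a range from 0.161 to 1.64%, and 0.0572% in classical-monocyte-like cells, with a range from 0 to 0.922%.

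**Figure D1:**
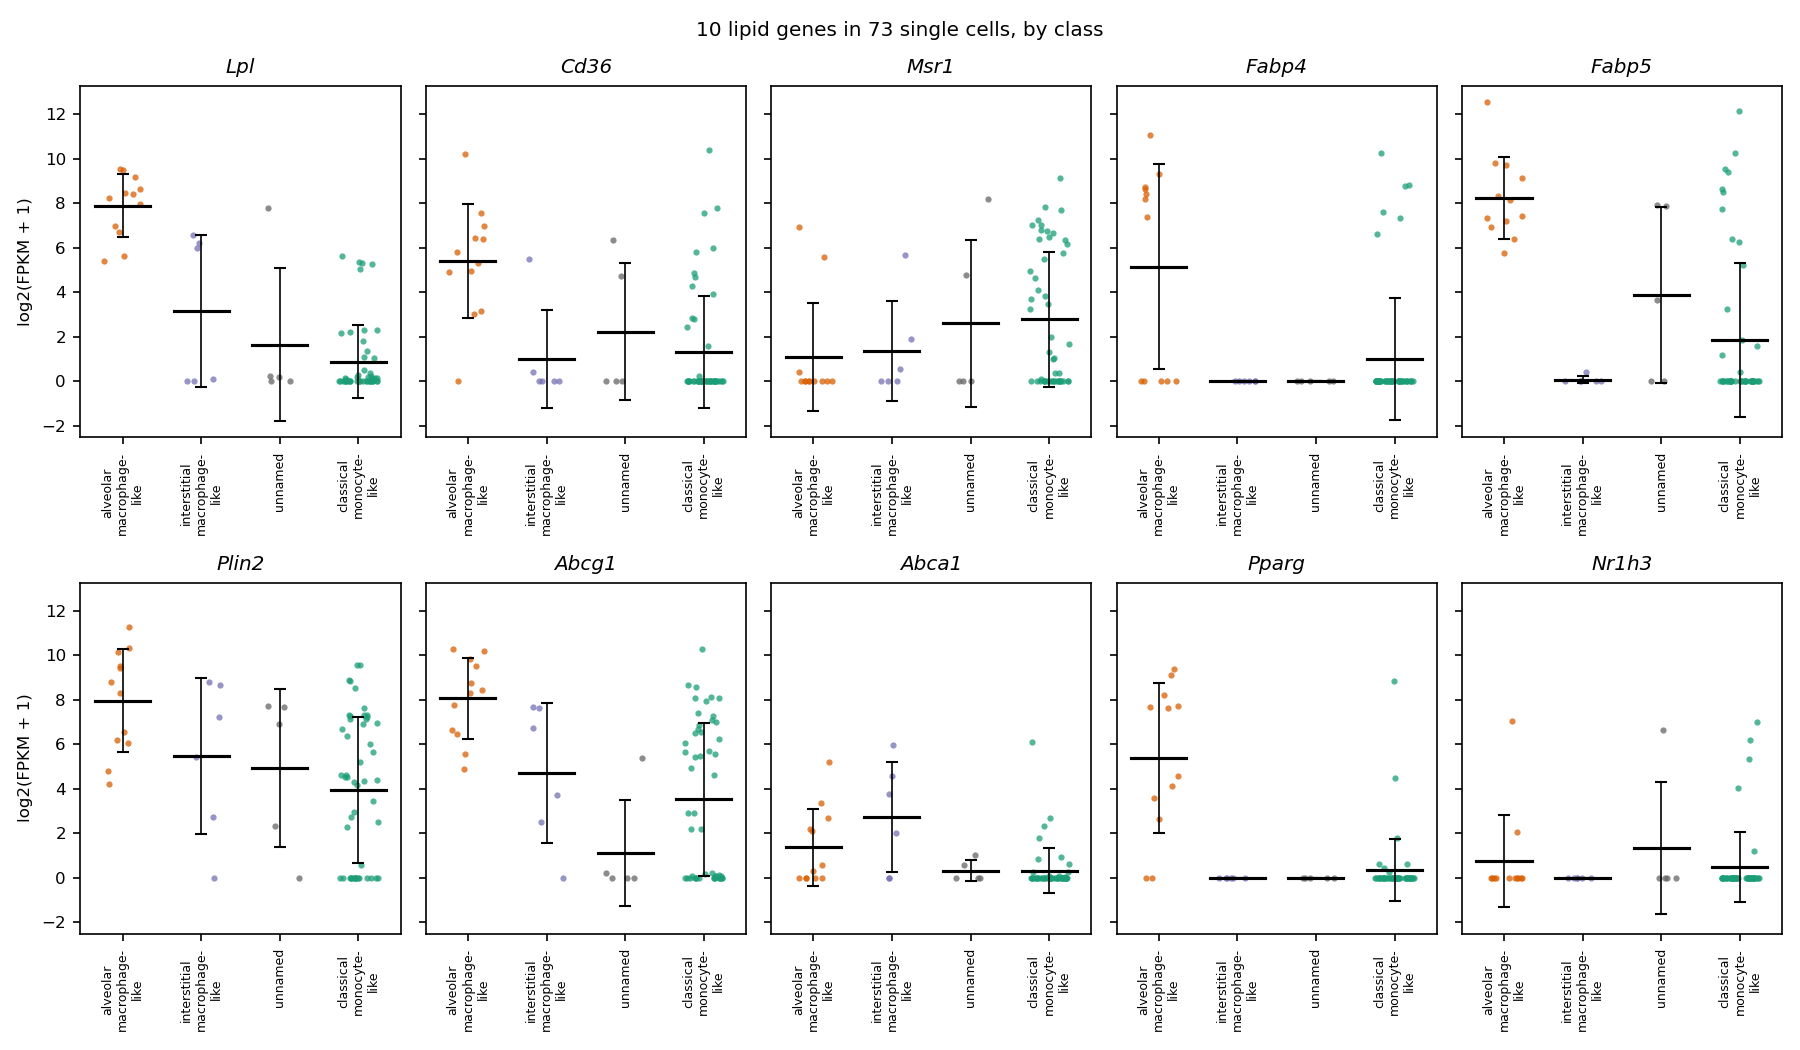
Level of each gene, log2(FPKM + 1), in every cell of the 4 classes, 1 panel a gene; dots are cells, the thick line is the class mean and the bar spans 1 SD either side. Lpl in the 12 alveolar-macrophage-like cells lies above nearly all classical-monocyte-like cells, Msr1 is listed at 0 in most alveolar-macrophage-like cells, and Fabp4 splits that class into 7 cells with it and 5 without.

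RefSeq promoter windows (build GRCm38.p6, 250 bases before to 50 after a start site) were at hand for 5 of the 10 genes, Abca1, Cd36, Nr1h3, Plin2 and Pparg. They were searched for AGGTCA, the half-site read by PPARγ and LXRα with their partner RXR, on both strands. The first-listed windows of Cd36, Plin2 and Pparg held it once each, and those of Abca1 and Nr1h3 did not, while 16.04% of all 27025 promoter windows hold it. The 3 first-listed windows that held the half-site are shown, with it in capitals (printed as TGACCT where it lies on the opposite strand). A further Pparg window, chr6:115362099-115362398, also held it, and the remaining windows of Pparg and Nr1h3 did not. Whether the half-site bears on the differences between classes was not tested.
Cd36, chr5:17835847-17836146, minus strand: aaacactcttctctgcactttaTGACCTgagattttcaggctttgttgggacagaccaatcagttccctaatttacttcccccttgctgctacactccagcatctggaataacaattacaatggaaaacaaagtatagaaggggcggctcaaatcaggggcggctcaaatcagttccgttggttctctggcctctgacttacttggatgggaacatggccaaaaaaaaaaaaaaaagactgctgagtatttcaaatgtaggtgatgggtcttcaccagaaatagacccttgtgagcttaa
Plin2, chr4:86670010-86670309, minus strand: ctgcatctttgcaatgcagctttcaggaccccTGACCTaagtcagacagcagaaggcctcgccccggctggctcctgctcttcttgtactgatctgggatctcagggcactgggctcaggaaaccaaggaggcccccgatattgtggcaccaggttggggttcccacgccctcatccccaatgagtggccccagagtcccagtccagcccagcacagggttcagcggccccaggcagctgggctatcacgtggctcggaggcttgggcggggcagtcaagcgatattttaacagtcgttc
Pparg, chr6:115360894-115361193, plus strand: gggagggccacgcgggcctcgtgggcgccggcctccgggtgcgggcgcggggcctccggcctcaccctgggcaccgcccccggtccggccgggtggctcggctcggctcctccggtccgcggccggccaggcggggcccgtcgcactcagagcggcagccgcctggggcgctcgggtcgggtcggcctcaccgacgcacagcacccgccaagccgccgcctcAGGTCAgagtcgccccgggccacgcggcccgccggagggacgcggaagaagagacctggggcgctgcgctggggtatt
The capitals begin 228 bases before the start site in Cd36, 218 in Plin2 and 28 in Pparg. The full repeats AGGTCANAGGTCA and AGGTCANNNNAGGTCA, spaced as PPARγ and LXRα prefer and searched on both strands without mismatch, were in none of the 8 windows of these 5 genes, and in 0.0444% and 0.0111% of all windows. A match of these letters is a description and not evidence of binding.

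Lpl, which encodes the secreted lipase that frees fatty acids from lipoprotein triglyceride (chromosome 8, 68880491 to 68907448, plus strand, build GRCm38), had the largest difference between these classes among the 10 genes. Its FPKM ran from 41.02 in alveolar-macrophage-like cell 85 over a median of 321 to 738 in cell 29. In classical-monocyte-like cells the lowest value was 0, the median 0.0325 and the highest 48.4, in cell 64. The ranges overlapped only at that cell: 11 of the 12 alveolar-macrophage-like cells lay above every classical-monocyte-like cell. The mean was 334 ± 245 FPKM over alveolar-macrophage-like cells (SD, 12 cells here and below) and 4.36 ± 11.8 over classical-monocyte-like cells (SD, 50 cells), a difference of 7.02 in mean log2(FPKM + 1) that ranked 7 of 6151 genes. All 12 alveolar-macrophage-like cells held Lpl, against 13 of 50 classical-monocyte-like cells (26%, 14.6 to 40.3). It was present at an intermediate level in 3 of the 6 interstitial-macrophage-like cells, with 61.6, 73.7 and 95.3 FPKM in cells 94, 50 and 32, and in 1 unnamed cell, 25, with 222.

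Cd36 encodes a scavenger receptor for long-chain fatty acids and oxidised lipoprotein (chromosome 5, 17781690 to 17888801, minus strand). Of 12 alveolar-macrophage-like cells, 11 held it, from 0 in cell 55 over a median of 47.5 to 1181 FPKM in cell 6. Of 50 classical-monocyte-like cells, 13 held it; the median was 0 and the highest value 1331, in cell 2. Most alveolar-macrophage-like cells lay above most classical-monocyte-like cells, but the ranges overlapped fully. The mean of 152 ± 328 FPKM over alveolar-macrophage-like cells became 58.99 without cell 6, and that of 39.2 ± 191 over classical-monocyte-like cells became 12.8 without cell 2. The difference in mean log2(FPKM + 1) was 4.09. Cells 2, 38 and 54 of the classical-monocyte-like class held at least 3 of 10 endothelial markers at FPKM of 10 or more, and Cd36, which capillary endothelium also expresses, had 1331, 28.1 and 218 FPKM in them. Without these 3 cells the difference was 4.50. In the alveolar-macrophage-like cells all 10 endothelial markers were at 0.

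Msr1, the class A scavenger receptor for modified lipoproteins (chromosome 8, 39581685 to 39642673, minus strand), went the opposite way. It was held by 2 of 12 alveolar-macrophage-like cells, at 121 FPKM in cell 19 and 46.9 in cell 12, and was below 1 in the other 10. In classical-monocyte-like cells it was detected in 27 of 50, from 0 over a median of 1.27 to 562 FPKM in cell 83. Alveolar-macrophage-like cells averaged 14.1 ± 36.4 FPKM, or 4.30 without cell 19, and classical-monocyte-like cells 45.3 ± 93.7 FPKM, and the difference was -1.69. All alveolar-macrophage-like values lay within the classical-monocyte-like range, so the contrast is one of how many cells held the transcript.

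Fabp4 and Fabp5 encode cytosolic carriers of fatty acids and lie close together on chromosome 3 (10204088 to 10208576, minus strand, and 10012548 to 10016607, plus strand). Fabp5 was present in 12 of 12 alveolar-macrophage-like cells, from 53.3 over a median of 229 to 6010 FPKM in cell 6, and in 14 of 50 classical-monocyte-like cells, with a median of 0 and a highest value of 4531 in cell 63. Of the 50 classical-monocyte-like cells, 9 reached the lowest alveolar-macrophage-like value. Over alveolar-macrophage-like cells the mean was 803 ± 1664 FPKM, or 330 without cell 6, and over classical-monocyte-like cells 167 ± 670 FPKM, or 78.1 without cell 63, and the difference of 6.38 ranked 12 of 6151 genes. Fabp5 was detected in 0 of the 6 interstitial-macrophage-like cells, so that a share below 50% could have been missed, whereas 3 of the 5 unnamed cells held it at 11.4, 235 and 238 FPKM. Processed pseudogenes Gm14328 and Gm6166 match Fabp5 over 408 and 409 bases at 97.3% and 98.3% identity and have no row of their own in the table, so reads of either could stand under Fabp5.

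Fabp4 was either high or listed at 0. Among alveolar-macrophage-like cells, 7 held it at 166 to 2159 FPKM (highest in cell 36) and 5 were at 0, with a class median of 227. Among classical-monocyte-like cells, 6 held it at 98.5 to 1235 FPKM (highest in cell 93) and 44 were at 0. No cell of either class lay between 0 and 98.5. The alveolar-macrophage-like mean was 366 ± 603 FPKM, or 203 without cell 36, the classical-monocyte-like mean was 51.3 ± 195 FPKM, or 27.2 without cell 93, and the difference was 4.15. The 7 alveolar-macrophage-like cells with Fabp4 had a median of 869730 mouse fragments, fewer than the 1278613 of the 5 without it. No interstitial-macrophage-like or unnamed cell held Fabp4.

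Plin2, the perilipin that coats lipid droplets outside fat tissue (chromosome 4, 86648386 to 86670060, minus strand), was the most widely detected of the 10, in 54 of 73 cells. Alveolar-macrophage-like cells ran from 17.8 over a median of 378 to 2489 FPKM, with the lowest value in cell 12 and the highest in cell 6. Classical-monocyte-like cells ran from 0 over a median of 19.6 to 751 FPKM in cell 43, and 27 of the 50 reached the lowest alveolar-macrophage-like value. Only 3 alveolar-macrophage-like cells lay above all of them, so the classes overlapped broadly. Alveolar-macrophage-like cells averaged 612 ± 735 FPKM and classical-monocyte-like cells 96.4 ± 174 FPKM, a difference of 4.02. Interstitial-macrophage-like cells averaged 174 ± 201 FPKM (SD over 6 cells), with the gene detected in 5. The pseudogene Gm12551 matches Plin2 over 259 bases at 96.1% identity and has no row in the table.

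Abcg1, which exports cholesterol to high-density lipoprotein and is needed in mice for surfactant handling by alveolar macrophages (chromosome 17, 31057675 to 31117988, plus strand), was present in 12 of 12 alveolar-macrophage-like cells. Its FPKM there ran from 28.96 in cell 12 over a median of 333 to 1259 in cell 29. It was present in 28 of 50 classical-monocyte-like cells, with a median of 6.50 and a highest value of 1255 in cell 41, the next being 408. The alveolar-macrophage-like mean was 471 ± 440 FPKM and the classical-monocyte-like mean 90.3 ± 197 FPKM, a difference of 4.55. Cell 41 reached the upper end of the alveolar-macrophage-like range, and 23 classical-monocyte-like cells reached its lower end. The 9 classical-monocyte-like cells with 5 or fewer classical monocyte markers averaged 279.7 FPKM, or 157.7 without cell 41, with 8 of 9 holding Abcg1. The other 41 averaged 48.7 FPKM, or 42.9 without their highest, cell 71, with 20 of 41 holding it. Set against those 41 alone the difference was 5.20. Cd36 and Fabp4 averaged 8.03 and 21.9 FPKM over the 41, and their differences were 4.67 and 4.40.

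Abca1, the exporter of cholesterol to lipid-poor apolipoprotein A-I (chromosome 4, 53030787 to 53159895, minus strand), was low in all classes. Its FPKM in alveolar-macrophage-like cells ran from 0 over a median of 0.364 to 35.6 in cell 29, and 5 of 12 cells held it. Among classical-monocyte-like cells, 4 of 50 held it, at 2.48, 3.97, 5.39 and 67.04 FPKM, the last in cell 57. Interstitial-macrophage-like cells held it most often, in 4 of 6, at 3.004, 12.4, 22.7 and 61.9 FPKM. The alveolar-macrophage-like mean of 4.82 ± 10.1 FPKM became 2.02 without cell 29, and the classical-monocyte-like mean of 1.63 ± 9.49 became 0.297 without cell 57. The difference between these 2 classes, 1.05, was just past 1 unit and fell short of it without any of cells 19, 29, 36, 85 or 87, at 0.86, 0.70, 0.97, 0.98 and 0.93. It was 0.81 when the cells were cut into 2 clusters.

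Pparg (chromosome 6, 115360951 to 115490399, plus strand) was present in 10 of 12 alveolar-macrophage-like cells (83.3%, 51.6 to 97.9) and in 3 of 50 classical-monocyte-like cells (6%, 1.25 to 16.5). Alveolar-macrophage-like cells ran from 0 over a median of 109 to 658 FPKM in cell 21. The 3 classical-monocyte-like cells were 13, 64 and 68, with 2.46, 20.97 and 451 FPKM. No interstitial-macrophage-like or unnamed cell held it. The alveolar-macrophage-like mean was 181 ± 225 FPKM, and the classical-monocyte-like mean of 9.52 ± 63.8 FPKM became 0.511 without cell 68. The difference was 5.04. The antisense gene Gm44079 overlaps Pparg, and the library chemistry is not stated to keep strand, so reads of either cannot be told apart.

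Nr1h3 (chromosome 2, 91184061 to 91202834, minus strand) was the least detected of the 10, in 8 of 73 cells. It was found in 2 alveolar-macrophage-like cells, at 132 FPKM in cell 12 and 3.19 in cell 36, and in 5 classical-monocyte-like cells, at 1.31, 15.2, 38.96, 72.4 and 125 FPKM. The difference was 0.29, and -0.29 without cell 12, so no direction can be read. The alveolar-macrophage-like mean of 11.2 ± 37.9 FPKM became 0.290 without cell 12, and the classical-monocyte-like mean of 5.06 ± 20.9 FPKM became 2.61 without cell 2. Gm13783, a transcript on the same strand, and the small RNA gene Gm23390 overlap it in the annotation.

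**Figure D2:**
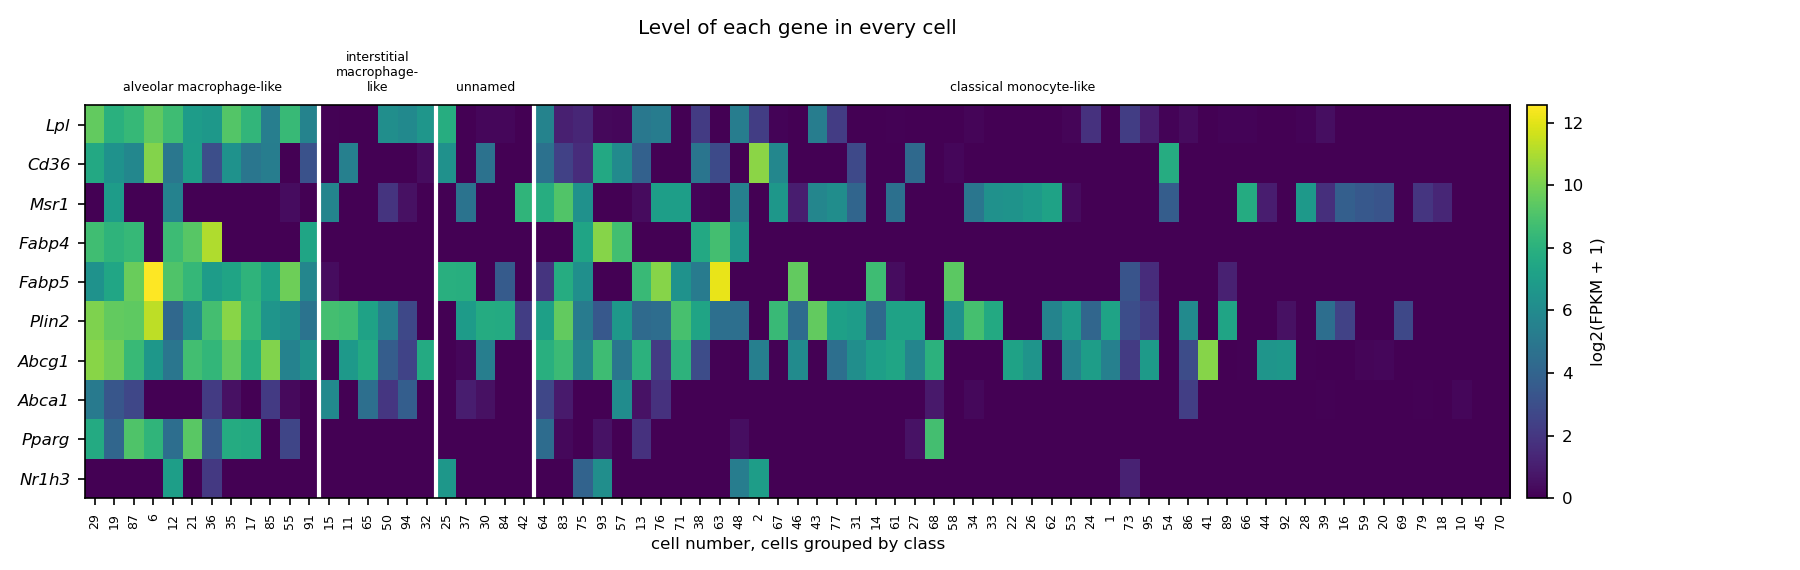
Heat map of log2(FPKM + 1) for the 10 genes (rows) in each of the 73 cells (columns, numbered as in the labels), grouped by class and ordered within a class by their mean level. Alveolar-macrophage-like cells are filled for Lpl, Fabp5, Plin2 and Abcg1, while classical-monocyte-like cells run from 8 of the 10 genes to none.

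Across all 4 classes, 7 of the 10 genes had their highest mean log2(FPKM + 1) in alveolar-macrophage-like cells, Abca1 in interstitial-macrophage-like, Nr1h3 in unnamed and Msr1 in classical-monocyte-like cells. The share of all genes with their highest mean in alveolar-macrophage-like cells was not computed, so the 7 cannot be set against it. For Lpl, Abcg1, Cd36, Fabp5 and Pparg the gap to the next class was larger than the larger SD of the pair. Of the 30 gaps between neighbouring classes, 23 were smaller than that SD and 2 were 0, Fabp4 and Pparg being listed at 0 in all interstitial-macrophage-like and unnamed cells, and these 25 give no order. After every cell was thinned at random to 347003 mouse fragments, in 20 draws, the number of alveolar-macrophage-like cells with each gene stayed as it was, except for Msr1 at 2 to 3. In classical-monocyte-like cells the widest ranges were 10 to 13 cells for Lpl, 11 to 14 for Fabp5 and 2 to 5 for Pparg. The mean was at least 2-fold higher in alveolar-macrophage-like than in classical-monocyte-like cells for 9 of the 10 genes in FPKM. The count was 9 in fragments per spike-in fragment. That measure does not depend on the other transcripts of a cell, but it rests on 1 spike-in row. The count was 7 after FPKM were rescaled to 1 mouse total per cell. The 9 in FPKM include Nr1h3 at 2.22-fold, whose alveolar-macrophage-like mean fell from 11.2 to 0.290 FPKM without cell 12. The share of all genes with such ratios was not computed, so these counts have no background beside them.

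The 79 further lipid genes were also chosen with earlier results of these data known. They fell into 7 lists, and 53 of them were detected in at least 8 cells. Of these, 28 were higher by at least 1 unit in alveolar-macrophage-like than in classical-monocyte-like cells and 4 were lower, beside 19.2% and 9.12% of all genes, and their median difference was 1.08. The filter counts cells of any class, so some genes passed it mainly through alveolar-macrophage-like cells, Marco, Cidec, Mgll and Fabp1 among them. It thus shapes these shares. With no filter, 29 of the 79 were higher and 4 lower. With any 1 cell left out, 24 of the 28 and 3 of the 4 stayed past 1 unit. Fatty acid oxidation had the highest list median, 2.28, and all 8 members detected in at least 8 cells were higher. The list also holds Cpt2, Slc25a20 and Pdk4, detected in fewer cells, with differences of 0.07, 0.50 and 0.25. Of the 8, Acadvl, an acyl-CoA dehydrogenase, was just past 1 unit at 1.08. It fell to 0.93, 0.58 and 0.74 without alveolar-macrophage-like cell 17, 36 or 87. Alveolar-macrophage-like cells averaged 64.6 ± 117 FPKM of Hadha, a subunit of the trifunctional protein, and 184 ± 256 of Ech1, an isomerase of the pathway. Classical-monocyte-like cells averaged 4.11 ± 16.96 FPKM of Hadha and 40.1 ± 106 of Ech1. Uptake receptors had 4 of 7 higher. Marco, a scavenger receptor of alveolar macrophages, was present in 8 of the 12 alveolar-macrophage-like and 2 of the 50 classical-monocyte-like cells. Olr1, a receptor for oxidised lipoprotein, was detected in 11 of the 12 and 9 of the 50. Scarb2, a lysosomal membrane protein, was higher by 1.39 in mean log2(FPKM + 1) while its mean FPKM was lower, 11.5 ± 13.3 in alveolar-macrophage-like against 19.99 ± 66.8 in classical-monocyte-like cells.

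Lipolysis and lysosomal cholesterol genes had 5 of 6 higher. Lipa, the lysosomal acid lipase, was present in 12 of 12 alveolar-macrophage-like cells at 337 ± 529 FPKM and in 23 of 50 classical-monocyte-like cells at 42.04 ± 99.6, a difference of 4.88. Mgll, which cleaves monoglycerides, and Abhd5, the coactivator of droplet lipolysis, were higher by 2.91 and 2.29, and Npc2, a lysosomal cholesterol carrier, was lower, with a difference of -1.39, or -0.95 without alveolar-macrophage-like cell 21. In the storage list 3 of 10 were higher: Cidec, a droplet fusion protein, by 4.15, Plin3 by 2.64 and Hilpda, an inhibitor of droplet lipolysis, by 2.50. The other 7, among them the esterifying enzymes Dgat1, Dgat2 and Soat1, were within 1 unit either way. Among regulators 4 of 7 were higher, with Cebpa, Cebpb and the PPARγ partner Rxra at 1.92, 1.76 and 1.49. The fourth, Mylip, which marks lipoprotein receptors for degradation, was at 1.19, and at 0.86, 0.81 and 0.86 without alveolar-macrophage-like cell 29, 35 or 55.

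Binding and efflux partners split. Fabp1, a carrier best known from liver, had 698 ± 1228 FPKM in alveolar-macrophage-like cells and 21.5 ± 105 in classical-monocyte-like cells, and Dbi was also higher. Apoe, the apolipoprotein that accepts exported cholesterol, was nearly absent from the alveolar-macrophage-like class, with 1 cell of 12 and a mean of 0.414 ± 1.13 FPKM. All 6 interstitial-macrophage-like cells held it, at 5393 ± 4365 FPKM, and 34 of the 50 classical-monocyte-like cells, at 328 ± 574 FPKM. Apoc2, the cofactor of lipoprotein lipase, was listed at 0 in all 12 alveolar-macrophage-like cells, so that a share below 25% could have been missed, and 31 of 50 classical-monocyte-like cells held it at 128 ± 218 FPKM. The class with the highest Lpl thus had the transcript of its cofactor listed at 0, but this was not particular to that class. Apoc2 was also at 0 in unnamed cells 25, 30, 37, 42 and 84 and in interstitial-macrophage-like cells 11, 15, 32 and 94. Interstitial-macrophage-like cell 65 had 0.559 FPKM and cell 50 had 207. In cholesterol synthesis 2 of 9 were higher and 1 was lower: Insig1, which restrains the pathway when sterol is high, was present in 5 of the 12 alveolar-macrophage-like and 43 of the 50 classical-monocyte-like cells. Its difference was -2.09, although alveolar-macrophage-like cells averaged 55.8 ± 142 FPKM and classical-monocyte-like cells 61.7 ± 66.6. The 2 higher, Hmgcs1 and Sqle, differed by 1.22 and 1.06. Without alveolar-macrophage-like cell 6, 17 or 91 Hmgcs1 was at 0.55, 0.89 and 0.96, and without cell 6, 12 or 17 Sqle was at 0.51, 0.93 and 0.81.

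**Figure D3:**
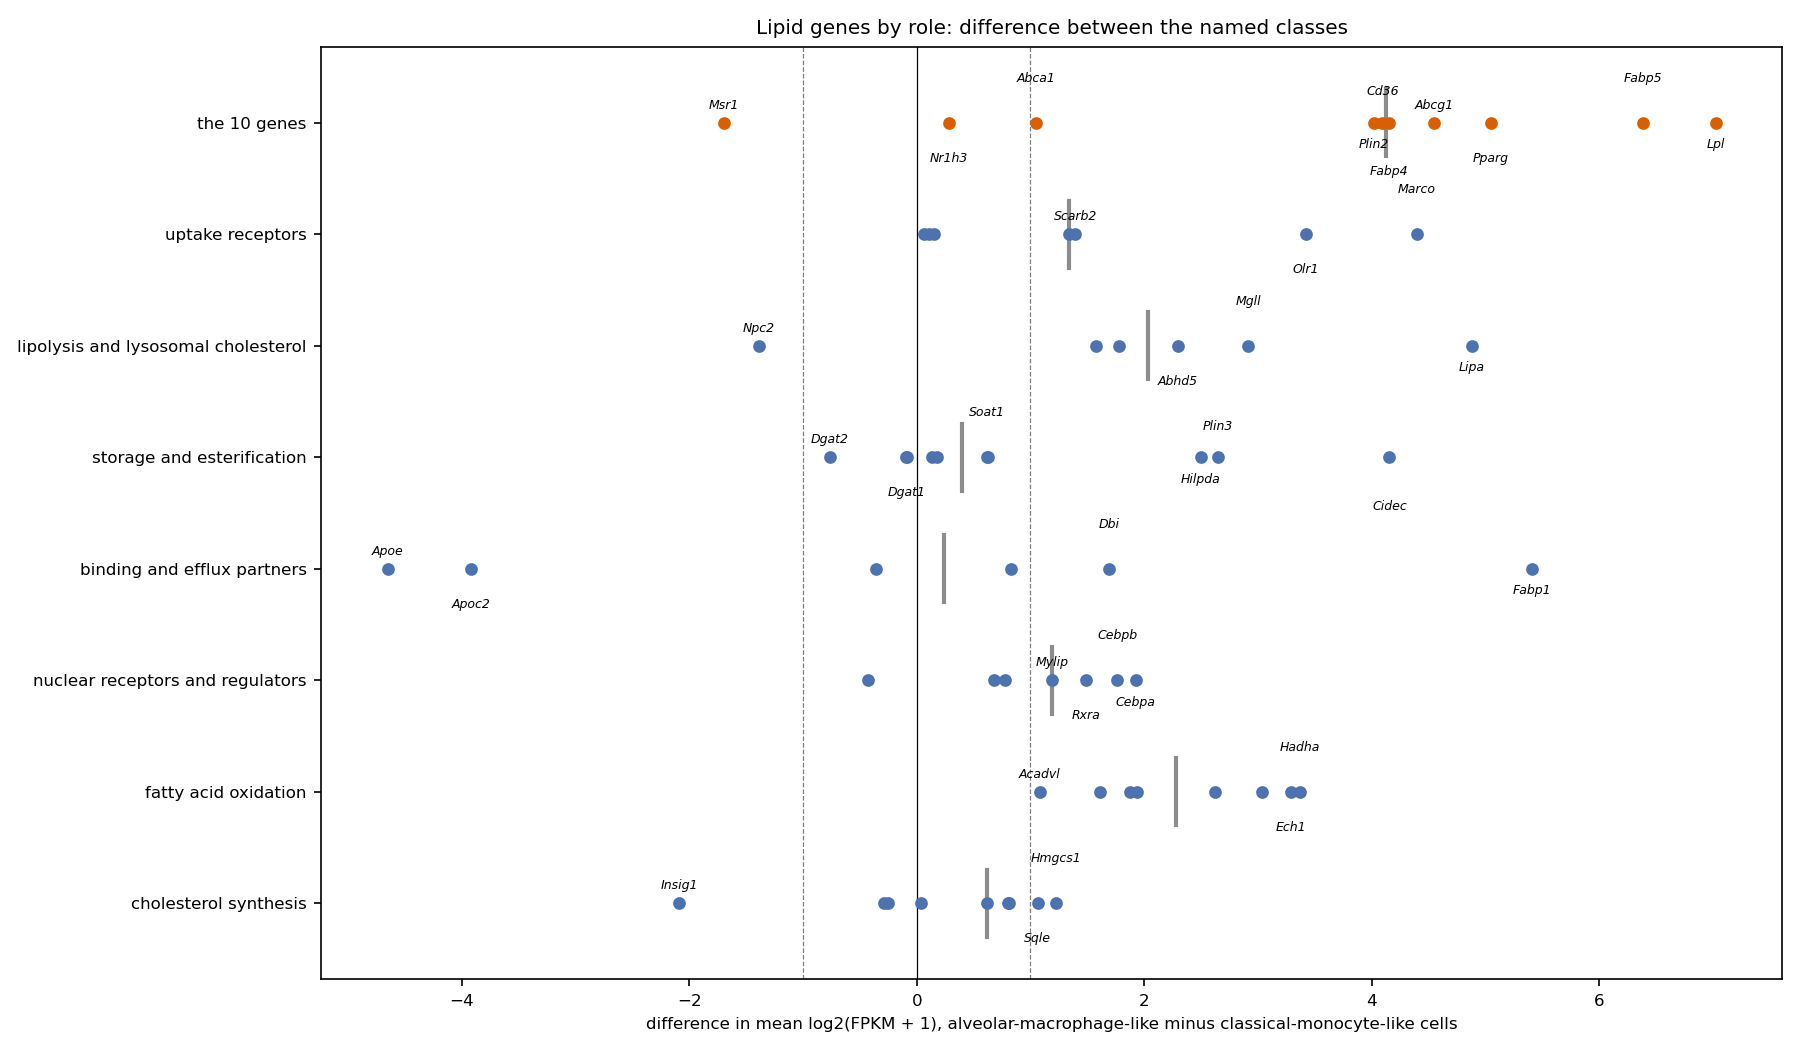
Difference in mean log2(FPKM + 1), alveolar-macrophage-like minus classical-monocyte-like cells, for the 10 genes (orange) and the 53 further lipid genes that were detected in at least 8 cells (blue), by list. Of the genes shown, those named in the text are labelled, bars mark list medians and dashed lines 1 unit either way. All 8 fatty acid oxidation genes shown lie right of the dashed line, and Apoe and Apoc2 lie farthest left.

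Some of the classical-monocyte-like cells that held Lpl or Cd36 also held markers of the alveolar-macrophage-like class. Of the 13 with Lpl, 7 had at least 3 alveolar macrophage markers at FPKM of 10 or more, against 3 of the 37 without. For Cd36 the counts were likewise 7 of 13 and 3 of 37, and cells with Cd36 had fewer classical monocyte markers, a median of 3 against 9 at FPKM of 10 or more. The counts were 7 of 14 and 3 of 36 for Fabp5, 10 of 33 and 0 of 17 for Plin2, and 8 of 28 and 2 of 22 for Abcg1. For Plin2 and Abcg1 the median was 1 alveolar macrophage marker at that level both with and without the gene. For Fabp4 the counts on the alveolar macrophage list were 3 of 6 and 7 of 44, for Nr1h3 3 of 5 and 7 of 45, and for Pparg 2 of 3 and 8 of 47. Msr1 showed no such lean, with 5 of 27 and 5 of 23, and Abca1 had 1 of 4 and 9 of 46. On the non-classical monocyte list, 4 of the 6 cells with Fabp4 had at least 3 markers, against 13 of the 44 without. Lpl, Plin2 and Fabp5 also rose with the number of genes detected in this class, at Spearman correlations of 0.46, 0.47 and 0.46. What lies behind such mixed profiles was not tested.

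Of 10 cells singled out after their values were seen, 4 classical-monocyte-like cells, 13, 64, 73 and 75, held 6 or 7 alveolar macrophage markers at FPKM of 10 or more. All 4 held Lpl, Plin2, Abcg1 and Fabp5, which the other 46 cells of the class held in 9, 29, 24 and 10 cases, and 2 of the 4 held Pparg, against 1 of the 46. Several of these values were low: cell 73 had 3.89 FPKM of Lpl, 6.84 of Plin2, 3.57 of Abcg1 and 8.46 of Fabp5, cell 75 had 1.58 of Lpl and cell 64 had 2.65 of Fabp5. All 4 had more mouse fragments than the class median of 1392921, from 1767280 upwards, and the part of depth was not tested. Cell 64 held 8 of the 10 genes, with Lpl at 48.4, Plin2 at 139, Abcg1 at 241 and Msr1 at 226 FPKM, and had the highest fragment number of its class, 2807776. The other 6, cells 27, 38, 41, 57, 68 and 93, held 6 to 9 of the 10 non-classical monocyte markers at that level. All 6 held Abcg1, and their number includes the classical-monocyte-like maxima of Abcg1, Fabp4, Abca1 and Pparg. None of the 6 held Msr1, which was detected in 27 of the other 44.

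Co-expression was described by Spearman correlation of FPKM over the cells of a class, which share the mouse and the chip and differ in depth. In the 12 alveolar-macrophage-like cells 2 of the 45 pairs reached 0.6, and the median over the pairs was 0.09. Abcg1 and Abca1, the pair of cholesterol exporters, correlated at 0.70, between 0.61 and 0.80 when any 1 cell was left out: the 5 cells with Abca1 had 317 FPKM of Abcg1 or more. With values under FPKM 10 set to 0 it was 0.48. Cd36 and Pparg correlated at 0.68, between 0.64 and 0.73 with 1 cell left out, and at 0.46 after FPKM were rescaled to 1 mouse total per cell. Both Cd36 and Plin2 also correlated with depth in this class, at 0.71 and 0.70 with mouse fragments. The number of pairs past 0.6 was unstable with so few cells, at 5 without cell 6, 4 without cell 12 or 29, 6 without cell 21 and 7 without cell 55. Among pairs of genes found in at least 50% of the 12 cells, 4.64% of all 2224995 pairs reached 0.6, beside 1 of 21 pairs of the 7 lipid genes so detected, and the medians were 0.04 and 0.22. Fabp5 was lower where Abcg1 was higher, at -0.45, the lowest value among the pairs.

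**Figure D4:**
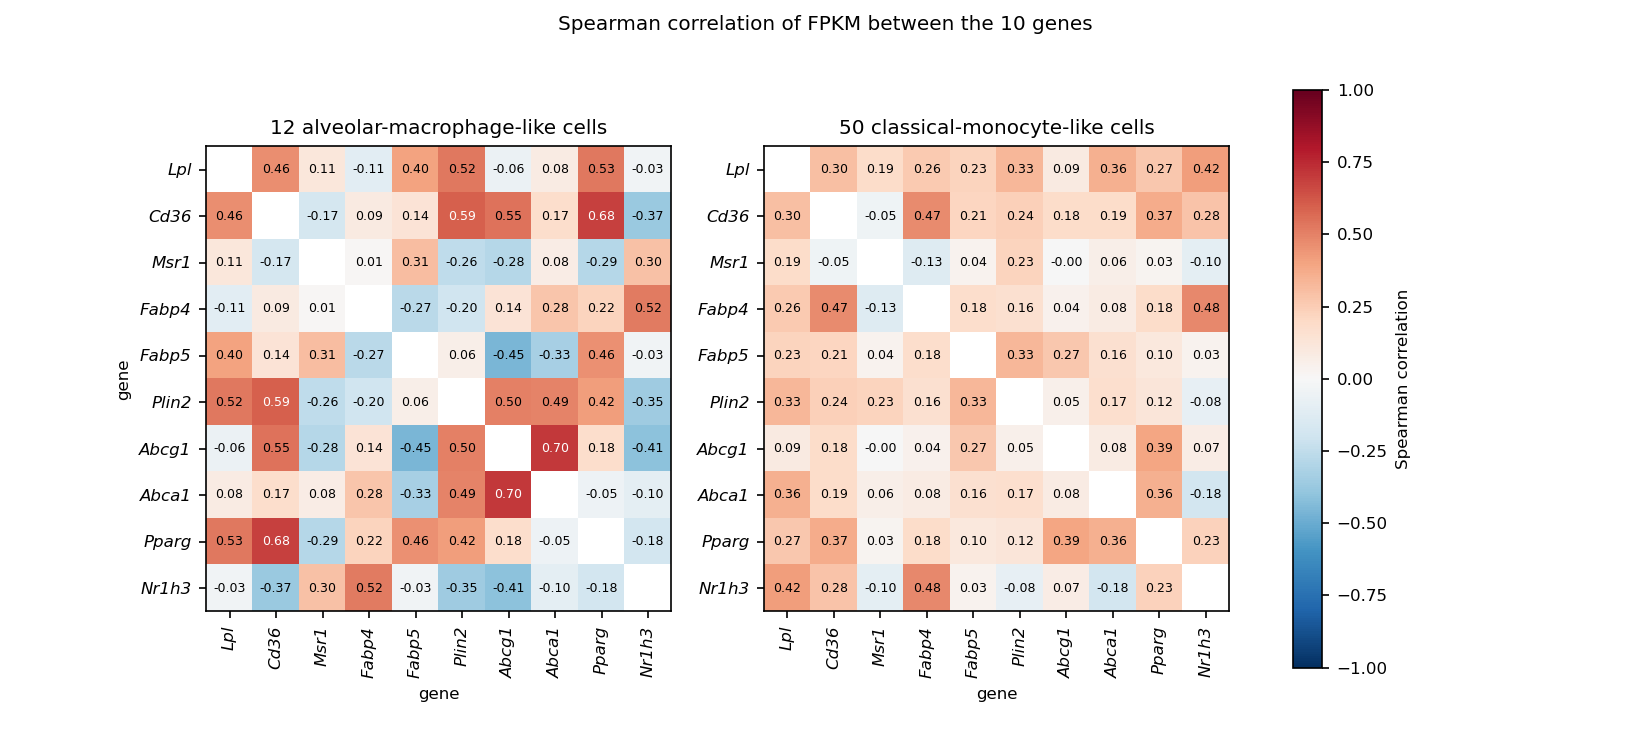
Spearman correlation of FPKM for each pair of the 10 genes in the 12 alveolar-macrophage-like (left) and the 50 classical-monocyte-like cells (right), red for positive and blue for negative. On the left Abcg1 with Abca1 and Cd36 with Pparg stand out, and on the right values are mostly weak and positive, at most 0.48.

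In the 50 classical-monocyte-like cells 3 of the 45 pairs reached 0.4, with a median of 0.18. These were Fabp4 with Nr1h3 at 0.48, Cd36 with Fabp4 at 0.47 and Lpl with Nr1h3 at 0.42. They rest on few cells: 5 of the 6 cells with Fabp4 also held Cd36, against 8 of the 44 without, and 3 cells held both Fabp4 and Nr1h3. Lpl with Nr1h3 fell below 0.4 in 3 other settings, at 0.33 with all cells thinned to 1 depth, 0.39 without the cells with endothelial markers and 0.15 with values under FPKM 10 set to 0. Cd36 with Fabp4 was 0.33 under that last setting. The number of pairs was 5 without cell 68 and 1 without cell 75, and 1 with values under FPKM 10 set to 0. Among the widely detected Plin2, Abcg1 and Msr1, 0 of the 3 pairs reached 0.4, beside 1.41% of all pairs of genes found in at least 50% of these cells. Plin2, Lpl and Fabp5 correlated with the number of genes detected, at 0.47, 0.46 and 0.46.

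**Figure D5:**
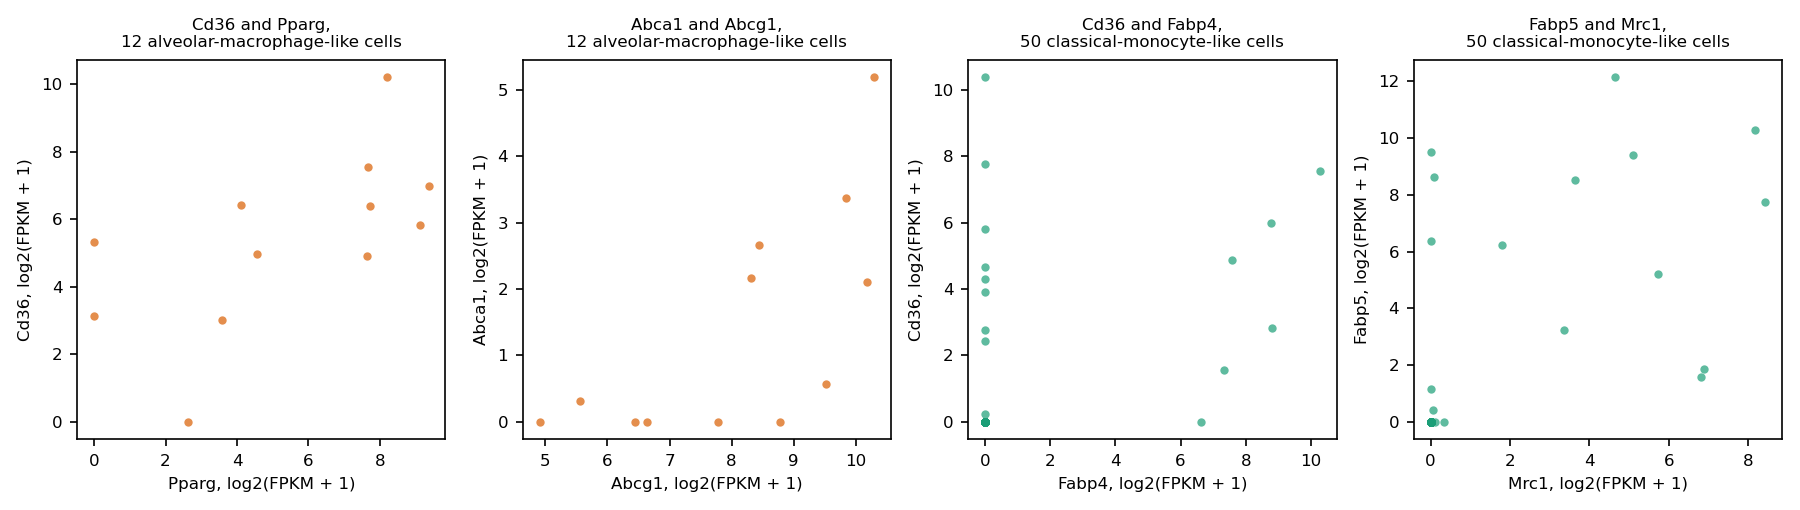
Level of 1 gene against another, log2(FPKM + 1), 1 dot a cell: Cd36 against Pparg and Abca1 against Abcg1 in the 12 alveolar-macrophage-like cells, and Cd36 against Fabp4 and Fabp5 against Mrc1 in the 50 classical-monocyte-like cells. All 10 classical-monocyte-like cells with Mrc1 also held Fabp5, while many cells sit at 0 for both.

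Over all 73 cells the gene most like each of the 10 was sought by Spearman correlation among 6141 other genes. For Pparg, Fabp5 and Cd36 it was an alveolar macrophage marker. Pparg was closest to Atp6v0d2, a proton pump subunit, at 0.72 (12 cells with both, of 13 with Pparg), Lpl to Axl, a receptor for dying cells, at 0.70, Fabp5 to Plet1 at 0.69 and Cd36 to Ctsk, the protease cathepsin K, at 0.65. Plin2 was closest to Ftl1, the ferritin light chain, at 0.59, Fabp4 to Fpr2, a formyl peptide receptor, at 0.59, and Abca1 to Dhrs3, a retinaldehyde reductase, at 0.49. Msr1 was closest to Gm12669 at 0.51 and Nr1h3 to Anapc2 at 0.53, with only 4 cells holding both Nr1h3 and Anapc2. Within the classical-monocyte-like cells, Fabp5 was closest to Mrc1, the macrophage mannose receptor, at 0.77. Mrc1 was detected in 10 of the 14 classical-monocyte-like cells with Fabp5 and in none of the 36 without. Those 10 cells include 13, 64, 73 and 75, singled out above for alveolar macrophage markers. All 12 alveolar-macrophage-like cells also held both genes, with Mrc1 at 39.3 to 283 FPKM. The link did not hold in every class: all 6 interstitial-macrophage-like cells held Mrc1, at 233 ± 162 FPKM, and none held Fabp5. In the same 50 cells Cd36 was closest to Tcf7l2, a transcription factor, at 0.64, Msr1 to Marcks at 0.64, Lpl to Actn1 at 0.58, Plin2 to Cox5b at 0.58 and Abcg1 to Cnn2 at 0.55.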

How the data were processed

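The submitters' processing notes name CASAVA 1.8, TopHat2 2.1.0, Cufflinks 2.2.1, Cuffnorm and mouse build mm10, while the gene annotation was not given in the sources used here. Levels were read from the authors' FPKM table. Their second deposited table holds a signal: fragment counts scaled by a factor for each cell. Low values there are whole multiples of a step (99.6% to within 0.1 of it, for values of 0.5 to 20 steps), and division by it gave the fragments. Of 100 spike-in rows, 1 held values. All were removed from the gene rows, and the 1 with values served only for fragments per spike-in fragment.

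The members and lists were chosen with earlier results of these data known. Clustering (Python 3.11.15, scikit-learn 1.9.0, scipy 1.17.1) used 1000 variable genes detected in at least 8 cells, without the lipid genes, as scaled log2(FPKM + 1), 10 principal components and Ward linkage. The cut of 2 to 6 clusters with the highest silhouette and at least 5 cells in each was taken, which gave 4 clusters. Naming a cluster took at least 3 markers of a type among 10 leading genes. A fixed rule named all 10 genes, the 3 further lipid genes per list with the largest absolute difference, pairs past 0.6 or 0.4, and the genes with the highest correlation; any other gene or cell named was chosen after its values were seen, and 2 genes that the rule picks are not reported here. Differences carry a pseudocount of 1, which understates changes of low genes. No doublet caller was run. Cells of 1 mouse are not replicates, so no p-value was computed. The scripts were tested on simulated data. Intervals and the limit of 3 cells for a count of 0 cover counting error only. Positions and gene overlaps come from GENCODE M21.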

Additional observations from a re-analysis of the deposited data

How the results depend on the processing

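No difference changed sign where it was past 1 unit. The count of genes higher by 1 unit in alveolar-macrophage-like than in classical-monocyte-like cells stayed between 7 and 8 under 14 other settings and between 7 and 8 with any 1 alveolar-macrophage-like cell left out. Further lipid genes higher by 1 unit numbered 24 to 35, and 25 to 29 with 1 cell left out. The same 12 cells were alveolar-macrophage-like in all 5 other clusterings. Genes detected in at least 50% of the 73 cells numbered 2, and 4 when any FPKM above 0 counted. Pairs past 0.6 in alveolar-macrophage-like cells ranged from 2 to 7 with 1 cell left out. Pairs past 0.4 in classical-monocyte-like cells ranged from 1 to 5 with 1 cell left out, and numbered 1 with values under FPKM 10 set to 0. The cause was not tested. Setting values under FPKM 1 to 0, and leaving cells with endothelial markers out of the pairs, were added after the data were seen. The means of Abca1, Nr1h3, Pparg and Fabp4 rest on few cells. Thinning to 1 depth left these genes in 13 to 15, 7 to 8, 12 to 15 and 13 of the 73 cells, against 14, 8, 13 and 13 before it. No paired analysis was possible because all cells belong to 1 group of 1 mouse.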
